A study of Rattus norvegicus with 74 samples.

Results

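miR-375 and miR-7 are microRNAs best known from endocrine and neuroendocrine cells, and their levels were followed in the kidneys of female and male rats over the life span. The array carried 6 mature sequences named rno-miR-375, rno-miR-7a or rno-miR-7b, with any arm or copy. Of these, 4 were detected on at least 1 array and were chosen by this detection: rno-miR-375-3p, rno-miR-7a-5p, rno-miR-7a-1-3p and rno-miR-7b, written below without the rat prefix. They are 4 of the 311 miRNAs detected on any array, out of 677 on the array. Detection was the only measured value in this rule, but the names themselves were chosen with earlier results of these data known. The other two, miR-375-5p and miR-7a-2-3p, were detected on 0 of 74 arrays.

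The kidneys came from untreated F344 rats, an inbred strain, with both sexes sampled at 8 ages. The young ages were 2, 5, 6 and 8 weeks and the adult and old ages 15, 21, 78 and 104 weeks. RNA from ground whole kidney of 1 animal was hybridized to each of 74 single-colour Agilent arrays, 36 of females and 38 of males, with 4 or 5 arrays for each age and sex. No rat carried an engineered allele or received an agent, and the stage of the females' oestrous cycle was left to vary. Whole-kidney RNA mixes all cell types of the organ, so fewer cells of a type and less miRNA per cell cannot be told apart.

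MicroRNAs are short RNAs that guide Argonaute proteins to messenger RNAs, mostly through base pairing of the seed near their 5′ end, and lower the stability or translation of those messages. miR-375 is abundant in pancreatic islets and the pituitary, and in islets it restrains insulin secretion and supports the mass of beta cells. miR-7 is enriched in islets, the pituitary and the brain, where the circular RNA Cdr1as holds many binding sites for it. miR-375 also occurs in epithelial tissues.

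The mature sequences show how the members relate. Capitals mark the seed, bases 2 to 8 counted from 1 at the 5′ end, and the sequences are those of RefSeq, where all 6 names were found. The 5p strands carry the seed for which the miR-7 family is known, and the 3p strand of miR-7a is shown because it differs between the copies of the gene.

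miR-375-3p: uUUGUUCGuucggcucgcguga
miR-7a-5p: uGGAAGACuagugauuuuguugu
miR-7b: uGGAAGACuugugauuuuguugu
miR-7a-1-3p: aCAACAAAucacagucugccau
miR-7a-2-3p: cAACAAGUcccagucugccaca

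miR-7a-5p and miR-7b share their seed and differ by 1 base of 23, A10U, which lies outside the seed. No other miRNA of the array with a sequence in RefSeq (615 of 677 names) has this seed, and none shares that of miR-375-3p. The seed of miR-7a-1-3p is also that of miR-3065-5p. In the rat assembly GRCr8, miR-375-3p lies on the minus strand at chr9:83906591-83906612, within the annotated span of Cryba2, a gene for a lens crystallin, and of a second protein-coding gene known only by its locus number. The sequence of miR-7a-5p occurs at 2 loci. One, at chr17:6278710-6278732 on the plus strand, lies within the span of Hnrnpk, which encodes an RNA-binding protein, and its hairpin also gives miR-7a-1-3p at chr17:6278751-6278772. The other, at chr1:142215818-142215840 on the plus strand, lies within a long non-coding RNA, and its hairpin gives miR-7a-2-3p. miR-7b lies at chr9:1167464-1167486 on the plus strand. A signal of miR-7a-5p therefore cannot be assigned to either locus, while those of the 3p strands can.

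Levels are given as normalized intensity, the background-subtracted signal of a miRNA divided by the 75th percentile of the 311 expressed miRNAs of its array. That percentile lay between 81.2 and 283 (median 156). A floor of 0.0171 was set from the faintest signal called detected (1.39) and the lowest percentile, and every value under it, undetected ones included, was set to that floor. Because probes differ in brightness, levels are compared between samples and not between miRNAs. With 1 animal per array, the number of arrays limits the precision of every mean. The arrays lay on 10 slides. Kidneys of 2 to 8 weeks were on 5 slides and those of 15 to 104 weeks on 5 more, except that 1 female of 15 weeks shared a slide with the younger ages. An array detected 190 to 264 miRNAs, with a median of 232. The array of 2-week male replicate 2 stood apart, with a median local background over all miRNA spots above the limit of 50 set for this check, against 19 to 48 on the other arrays.

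The tissue label was borne out by the markers. Of 17 listed miRNAs of kidney tubule and epithelium, such as miR-192 and miR-194, 14 were expressed, and their summed level lay between 40.6 and 85.7 on all arrays. The pancreatic acinar markers miR-216a and miR-217 were detected on 0 of 74 arrays (4 arms). Of the nervous-tissue markers, miR-124 and miR-153 were detected on 0 arrays, but miR-9a-5p was on 74 and miR-9a-3p on 72. Of the striated-muscle markers, miR-1, miR-133a and miR-206-5p were detected on 0 arrays and miR-206-3p on 17.

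miR-375-3p was detected on 73 of 74 arrays and was lowest in the youngest kidneys of both sexes. At 2 weeks it measured 0.0760, 0.0691, 0.0698 and 0.0661 in the 4 females. In the 5 males of that age it measured 0.0651, 0.0469, 0.0505 and 0.0508, and it was marked as not detected in replicate 2. At 5 weeks it measured 0.134, 0.198, 0.188 and 0.249 in females and 0.175, 0.179, 0.160, 0.244 and 0.246 in males. Every animal of 5 weeks stood above every animal of 2 weeks in both sexes.

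The rise from 2 to 5 weeks was 1.42 ± 0.24 (SE) on the log2 scale in females, a 2.68-fold difference (limma, Benjamini-Hochberg adjusted p = 2.18e-06). In males it was 2.23 ± 0.22 (SE), a 4.69-fold difference (adjusted p = 1.46e-13). Among the 311 expressed miRNAs, 8.36% in females and 12.2% in males were called higher at 5 weeks, and 20.3% and 24.8% were called in either direction. Here a call means that the adjusted p was below 0.05 and the fold 1.5 or more. The groups of 2 and 5 weeks did not overlap for 22.8% of the miRNAs in females and 30.5% in males. In size, the change of miR-375-3p exceeded that of 97.1% of the expressed miRNAs in females and 98.1% in males. The undetected male entered at the floor, and without this array the male change was 1.90 (adjusted p = 7.84e-13).

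**Figure D1:**
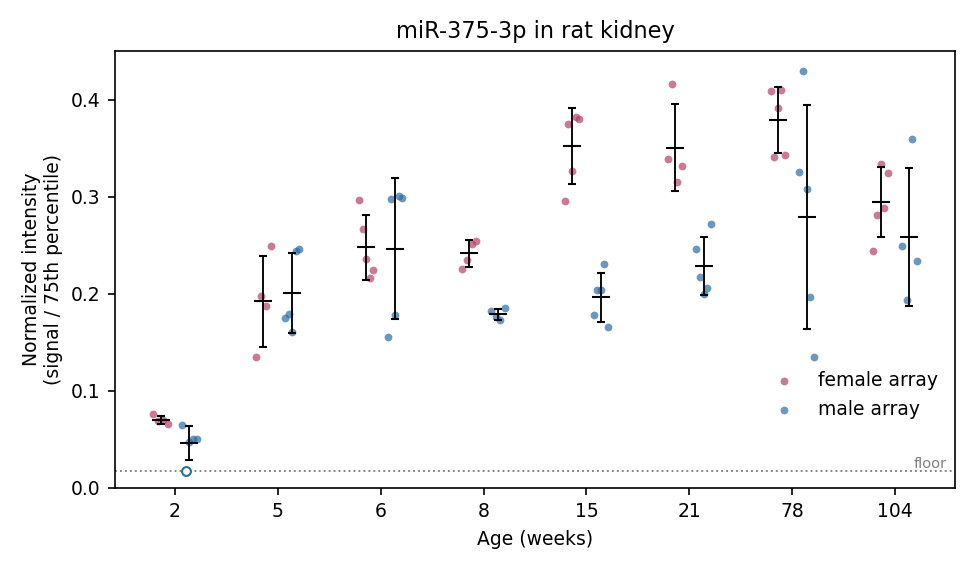
Normalized intensity of miR-375-3p (vertical axis, no unit) at each age in weeks (horizontal axis, not to scale) in females (red) and males (blue). Points are single arrays, open points are undetected arrays at the floor (dotted line), and bars are the mean and SD of 4 or 5 arrays; the 2-week groups sit below 0.08 and all groups from 5 weeks on above 0.13.

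After 5 weeks the means of miR-375-3p went higher in females than in males at most ages. In 6-week females the mean was 0.248 ± 0.033 (SD, n = 5), and in 8-week females 0.242 ± 0.014 (n = 4). It was 0.352 ± 0.039 (n = 5) at 15 weeks, 0.351 ± 0.045 (n = 4) at 21 weeks, 0.379 ± 0.034 (n = 5) at 78 weeks and 0.294 ± 0.036 (n = 5) at 104 weeks. In males the mean was 0.246 ± 0.073 (SD, n = 5) at 6 weeks, 0.179 ± 0.0056 (n = 4) at 8 weeks, 0.196 ± 0.026 (n = 5) at 15 weeks, 0.229 ± 0.030 (n = 5) at 21 weeks, 0.279 ± 0.116 (n = 5) at 78 weeks and 0.259 ± 0.071 (n = 4) at 104 weeks. Ordered by their means, the 4 highest of the 16 groups were the females of 78, 15, 21 and 104 weeks, and the lowest were both groups of 2 weeks. Neighbours in this order overlapped in range down to the males of 8 weeks, who stood clear of the females of 2 weeks.

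The males of some ages were widely spread. At 6 weeks, 3 males measured 0.298, 0.301 and 0.299 and the other two 0.156 and 0.178. At 78 weeks the males ranged from 0.135 to 0.430 with a median of 0.308, against 0.341 to 0.410 in the females. At 8 weeks the 4 males lay between 0.173 and 0.185.

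Over all 8 ages the age effect of miR-375-3p was called in both sexes (limma's moderated F test, adjusted p = 5.25e-15 in females and 9.42e-09 in males). Such calls were made for 36.7% of the expressed miRNAs in females and 45.3% in males. The effect was called within the younger ages but not within the older ones. Over all ages, 13 pairs of ages in females and 7 in males differed enough for a call. The younger ages tested alone gave 3 such pairs in each sex, and the older ages alone gave 0. Most of the female pairs therefore joined a younger and an older age, across the change of slides. Among the ages of 2 to 8 weeks alone the adjusted p was 6.84e-07 in females and 9.84e-06 in males, where 21.2% and 30.2% of the miRNAs were called. Among the ages of 15 to 104 weeks alone it was 0.0722 and 0.591, and neither was called, against 7.40% and 16.7% of the miRNAs. Of the later steps tested, 8 minus 5, 15 minus 8, 21 minus 15 and 104 minus 15 weeks, none was called for miR-375-3p in either sex. In females these steps were called for 2.89%, 2.57%, 0.643% and 5.79% of the miRNAs, and in males for 2.25%, 0.965%, 2.25% and 13.2%. The largest was the 15 minus 8 week step in females (0.54 ± 0.23, SE, adjusted p = 0.156), which also spans the change of slides. From 2 to 104 weeks, also across the change of slides, the level rose by 2.06 ± 0.23 (log2, SE) in females and 2.58 ± 0.23 in males (adjusted p = 1.44e-11 and 4.33e-15). Over this span 12.5% of the miRNAs in females and 17.7% in males were called higher (24.8% and 35.4% in either direction).

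Between the sexes, miR-375-3p was lower in males than in females at 7 of 8 ages. At 15 weeks the 5 females measured 0.295, 0.375, 0.326, 0.383 and 0.380, and the 5 males 0.178, 0.204, 0.204, 0.231 and 0.165. At 21 weeks the 4 females measured 0.339, 0.416, 0.315 and 0.332, and the 5 males 0.246, 0.218, 0.200, 0.206 and 0.272. The sexes did not overlap at 15 or 21 weeks, nor at 2 and 8 weeks.

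At 15 weeks the difference (male minus female) was -0.84 ± 0.22 (log2, SE; limma, adjusted p = 0.00530), 1.80-fold lower in males. Calls between the sexes at this age, in either direction, were made for 3.54% of the miRNAs, and 2.89% were called higher in females. The 15-week call was kept when any single array was left out (adjusted p of 0.000645 to 0.0209). It was lost with the floor set before scaling (adjusted p = 0.0609), with the 75th percentile taken over all miRNAs of the array (0.0841) and with normexp background correction (0.909). At 2 weeks the difference was -0.73 ± 0.23 (SE, adjusted p = 0.0245), called where 3.86% of the miRNAs were (3.22% of the 311 were called higher in females). Without the undetected male it was -0.41 with an adjusted p of 0.230, and the call was also lost without female replicate 3, 4 or 5 of that age. It was lost as well with the percentile over all miRNAs (0.0584), quantile normalization (0.0901), normexp (0.0966), a separate fit for each age (0.370) and the methods' t-test (0.417). At 21 weeks it was -0.62 ± 0.23 (SE, adjusted p = 0.0688) and at 78 weeks -0.55 ± 0.22 (SE, adjusted p = 0.0614), neither of them called (4.82% and 6.75% of the miRNAs were). The 21-week difference was called under 5 alternatives: with the percentile over miRNAs detected on all arrays (-0.78, adjusted p = 0.0139), with all miRNAs of the array tested (0.0243), by the methods' t-test (0.0251), with a separate fit for each age (0.0171) and without the same 2-week male array, which enters the common spread (0.0263). It passed also without 78-week male replicate 6, and the 78-week difference passed without 78-week male replicate 2, 3 or 4 (range over single arrays left out -0.73 to -0.32).

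At 5, 6, 8 and 104 weeks the differences in miR-375-3p were 0.07, -0.06, -0.43 and -0.21, with 95% confidence intervals that included 0. At these ages 0%, 0.322%, 1.29% and 6.11% of the miRNAs were called. The groups did not overlap for 11.9% of the miRNAs at 8 weeks, 8.04% at 2 weeks, 7.72% at 15 weeks and 10.3% at 21 weeks. Averaged over the 8 ages, males were lower by 0.42 ± 0.08 (log2, SE), a 1.34-fold difference (adjusted p = 3.65e-05). This passed the threshold on p but not the fold of 1.5, so it was not called (2.57% of the miRNAs were). With slide as a fixed block the averaged difference was -0.43. The interaction of age and sex had an adjusted p of 0.144 (unadjusted 0.0528), so a change of the sex difference with age was not shown.

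**Figure D2:**
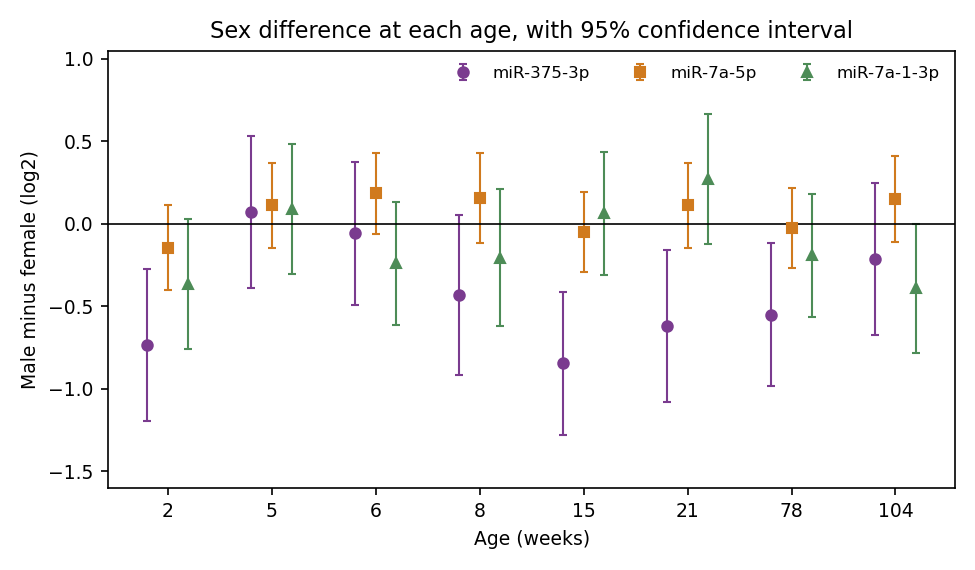
Sex difference (male minus female, log2, vertical axis) at each age in weeks (horizontal axis, not to scale) for the 3 members that could be tested, with 95% confidence intervals from limma. The points of miR-375-3p lie below 0 at 7 of 8 ages, lowest at 15 weeks (-0.84), while those of miR-7a-5p stay between -0.14 and 0.18.

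Each miRNA is read by 20 spots with several probes, and the scanner software adds only the probes it counts as detected. For miR-375-3p the total signal equalled the brighter of 2 probes on 43 arrays and the sum of both on 30, which adds a step to some arrays. At 15 weeks both were summed in 4 of 5 females and 1 of 5 males. The brighter probe alone gave 0.327 ± 0.027 (SD, n = 5) in females of that age. In males it gave 0.192 ± 0.026 (SD, n = 5), again without overlap (difference -0.77, adjusted p = 0.000480). It also gave a value for the 2-week male marked as not detected, 0.0457, the lowest of its group but near the other four. With this probe the 2-week sex difference was -0.45 (adjusted p = 0.0863) and the rise from 2 to 5 weeks 1.42 in females and 1.94 in males, both called. The alternative with 1 probe was chosen after the values had been seen. The probes of the opposite arm, miR-375-5p, gave signals below 0 on all 74 arrays after background subtraction.

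miR-7a-5p, the strand that carries the known miR-7 seed, was detected on 74 of 74 arrays and rose with age in both sexes. At 2 weeks it measured 0.0870, 0.126, 0.110 and 0.0982 in females, and 0.0827, 0.125, 0.103, 0.0817 and 0.0858 in males. At 5 weeks it measured 0.191, 0.146, 0.158 and 0.166 in females, and 0.186, 0.175, 0.192, 0.202 and 0.141 in males. The ages of 2 and 5 weeks did not overlap in either sex, as for 22.8% of the 311 miRNAs in females and 30.5% in males. The gap was narrower than for miR-375-3p.

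The change from 2 to 5 weeks was 0.66 ± 0.14 (log2, SE) in females, 1.58-fold, and 0.92 ± 0.12 in males, 1.89-fold (limma, adjusted p = 7.36e-05 and 3.12e-09). Both were called. The female call was lost with the 75th percentile taken over miRNAs detected on all arrays (0.56, under the fold of 1.5) and without 2-week female replicate 3 (0.57, likewise). Both probes of miR-7a-5p were summed on 0 arrays of 2 weeks, but in 1 of 4 females and 4 of 5 males of 5 weeks, which adds to the rise. The brighter probe alone went from 0.105 ± 0.017 (SD, n = 4) to 0.157 ± 0.0081 (n = 4) in females. In males it went from 0.0957 ± 0.019 (n = 5) to 0.159 ± 0.012 (n = 5). Normexp background correction ended every age call of the 3 members, as given in the section on processing.

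The highest means of miR-7a-5p were those of the oldest kidneys in both sexes. In females the means were 0.171 ± 0.034 (SD, n = 5) at 6 weeks, 0.183 ± 0.038 (n = 4) at 8 weeks, 0.230 ± 0.017 (n = 5) at 15 weeks and 0.241 ± 0.020 (n = 4) at 21 weeks. They were 0.288 ± 0.015 (n = 5) at 78 weeks and 0.270 ± 0.027 (n = 5) at 104 weeks. In males they were 0.193 ± 0.031 (n = 5), 0.202 ± 0.026 (n = 4), 0.222 ± 0.018 (n = 5), 0.260 ± 0.020 (n = 5), 0.284 ± 0.024 (n = 5) and 0.300 ± 0.028 (n = 4) at the same ages. The 4 highest of the 16 groups were those of 78 and 104 weeks in both sexes, and neighbours in the order overlapped except between the females of 5 weeks and those of 2 weeks.

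The age effect was called in females and in males (adjusted p = 1.43e-09 and 1.50e-12). Among the ages of 15 to 104 weeks alone the F test gave adjusted p-values of 0.0155 in females and 0.00304 in males, but no pair of these ages reached a fold of 1.5, so neither was called. From 15 to 104 weeks, within 1 set of slides, the male level rose by 0.43 ± 0.13 (SE, adjusted p = 0.010, 1.35-fold), below the fold threshold. With the percentile over miRNAs detected on all arrays it was 0.61 and called. From 2 to 104 weeks, across the change of slides, miR-7a-5p rose by 1.37 ± 0.13 in females, 2.58-fold, and 1.66 ± 0.13 in males, 3.17-fold (adjusted p = 4.95e-14 and 1.66e-17). Its total signal equalled the brighter of 2 probes on 21 arrays and the sum of both on 53. Both were summed on 0 arrays of 2 weeks and on all arrays of 104 weeks, which adds to this rise. The brighter probe alone went from 0.105 ± 0.017 (SD, n = 4) to 0.230 ± 0.024 (n = 5) in females over this span. In males it went from 0.0957 ± 0.019 (n = 5) to 0.256 ± 0.026 (n = 4).

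No sex difference of miR-7a-5p was called at any of the 8 ages by limma, and 0 had an unadjusted p under 0.05. The methods' t-test likewise called 0 and had 0 at an unadjusted p under 0.05. The estimates lay between -0.14 and 0.18. Averaged over the ages the difference was 0.06 ± 0.05 (log2, SE), with a 95% confidence interval from -0.03 to 0.15, so the data leave room for a male excess of up to 0.15. The interaction had an adjusted p of 0.728.

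**Figure D3:**
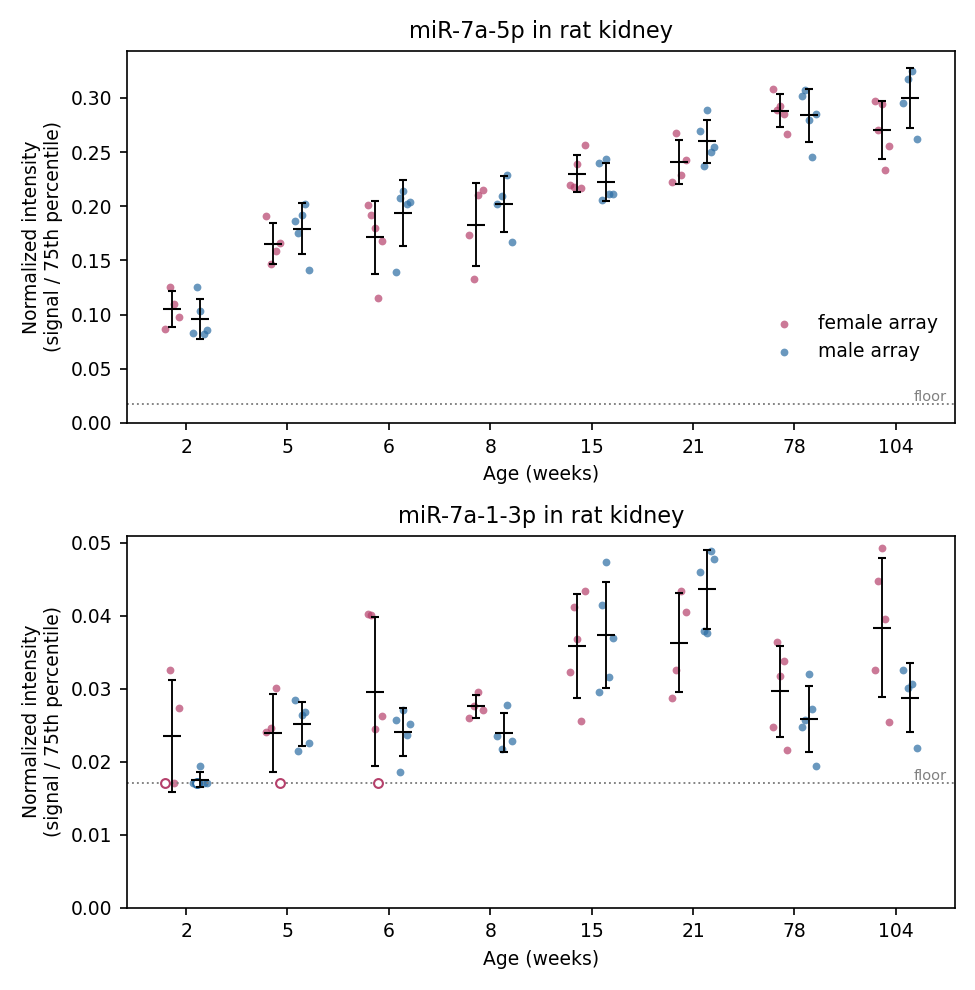
Normalized intensity of miR-7a-5p (upper panel) and miR-7a-1-3p (lower panel) at each age in weeks (horizontal axes, not to scale) in females (red) and males (blue); the vertical scales differ. Points are single arrays, open points undetected arrays at the floor (dotted line), and bars the mean and SD of 4 or 5 arrays; miR-7a-5p goes from about 0.10 at 2 weeks to between 0.27 and 0.30 at 104 weeks, while miR-7a-1-3p stays below 0.05.

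miR-7a-1-3p, the opposite strand of the hairpin in Hnrnpk, was dim but detected on 70 arrays, with signals of 1.94 to 10.4. Of its detected values, 4 lay under the floor and were raised to it. At 2 weeks it measured 0.0325 and 0.0274 in 2 females and was at the floor in the other two. In the males of that age it was 0.0194 in replicate 3 and at the floor in the other four. At 5 weeks it measured 0.0241, 0.0246 and 0.0301 in 3 females and was undetected in the fourth. The 5 males of that age lay between 0.0215 and 0.0284.

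The highest group was the 21-week males, at 0.0461, 0.0379, 0.0377, 0.0489 and 0.0478. The 78-week males measured 0.0248, 0.0258, 0.0320, 0.0272 and 0.0195, all of them below every 21-week male, and males of these ages did not overlap for 13.2% of the 311 miRNAs. For 21-week male replicates 1, 2, 4 and 5 the total was the sum of 2 probes. For the 78-week males it was the brightest probe alone. With that probe alone the 21-week males lay between 0.0279 and 0.0377 and overlapped the 78-week males. The females of these ages overlapped, at 0.0287 to 0.0435 and 0.0216 to 0.0364. The age effect was called in males (adjusted p = 9.65e-09), and also among males of 15 to 104 weeks alone (adjusted p = 0.00556). In females it was not called (adjusted p = 0.0694), but the call turned with the probe: with the brightest probe alone the adjusted p was 0.00321 and the effect was called. It was also called without any 1 of 6 female arrays: 2-week replicate 4, 6-week replicate 1, 2 or 4, 15-week replicate 4, or 104-week replicate 5.

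From 2 to 104 weeks miR-7a-1-3p was higher by 0.73 ± 0.20 (log2, SE) in females and 0.70 ± 0.20 in males (adjusted p = 0.00176 and 0.00210), both called. With the percentile over all miRNAs they fell under the fold of 1.5 (0.58 and 0.55), as did the male value with the brightest probe alone (0.51). The step from 2 to 5 weeks was 0.06 ± 0.21 in females (adjusted p = 1) and 0.51 ± 0.19 in males (adjusted p = 0.0202), the latter under the fold of 1.5. With the floor set before scaling the male step was 0.86 and called. With most 2-week values at the floor, these changes are limited from below. The male step from 8 to 15 weeks, which spans the change of slides, was 0.62 ± 0.20 with an adjusted p of 0.0502, and was called in 22 of the 74 fits without 1 array.

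Sex differences of miR-7a-1-3p were called by limma at 0 of 8 ages, with 0 at an unadjusted p under 0.05, and the methods' t-test gave the same counts. They ranged from -0.39 at 104 weeks to 0.27 at 21 weeks, and averaged -0.12 ± 0.07 (SE, 95% confidence interval -0.26 to 0.02). The interaction had an adjusted p of 0.378. Of the 2 hairpins that give miR-7a-5p, only that in Hnrnpk left a detected 3p strand. The brighter probe of miR-7a-2-3p gave signals at or below 0 on 71 arrays and the other probe on all 74.

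miR-7b, which differs from miR-7a-5p by the single base A10U shown above, was detected on 1 of 74 arrays, that of 8-week male replicate 3. Its signal there was 1.40, or 0.00951 after scaling, which lies under the floor. It was therefore at the floor on every array, and no age or sex difference could be tested. On the other 73 arrays the faintest miRNA that was detected had a normalized intensity of 0.00711 to 0.0270, and a level of miR-7b below that is not told from background. This is no firm limit, as miR-375-3p was marked undetected on 1 array with its brighter probe at 0.0457. The 2 brightest miR-7b probes gave signals above 0 on all 74 arrays (medians before scaling 0.915 and 0.670). Under 1% of their spots were well above background, so a faint level and absence were not told apart.

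The members also differed from each other. Within each array the log2 level of 1 member was subtracted from that of another, and the differences were compared by permutation of the array labels (two-sided, 6 tests, Benjamini-Hochberg adjusted). The sex difference averaged over ages was lower for miR-375-3p than for miR-7a-5p by 0.49 on the log2 scale, with the same sign at 8 of 8 ages (permutation test with 100000 resamples of the sex labels within age, p = 1e-05, the smallest it can give, adjusted p = 6e-05). It was also lower than that of miR-7a-1-3p by 0.30, at 6 of 8 ages (permutation adjusted p = 0.00781). That of miR-7a-5p was higher than that of miR-7a-1-3p by 0.18, at 6 of 8 ages (permutation adjusted p = 0.0123), and this call was lost with quantile normalization (0.15, adjusted p = 0.0659).

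The change from 2 to 5 weeks, averaged over the sexes, was 1.82 for miR-375-3p, 0.79 for miR-7a-5p and 0.29 for miR-7a-1-3p. The rise of miR-375-3p was larger than that of miR-7a-5p by 1.04 (exact permutation test over 17640 splits, adjusted p = 0.00113) and larger than that of miR-7a-1-3p by 1.54 (exact permutation test, adjusted p = 0.00034; its unadjusted p of 0.000113 is the smallest these splits allow). The rise of miR-7a-5p exceeded that of its opposite strand by 0.50 (exact permutation test, adjusted p = 0.00646). At 2 weeks miR-7a-1-3p was at the floor in 2 of 4 females and 4 of 5 males, which cuts off its rise and enlarges both differences taken against it. With the floor set before scaling the difference between the strands of miR-7a was 0.32 (exact permutation test, adjusted p = 0.238). With the brightest probe alone it was 0.30 (exact permutation test, adjusted p = 0.00449).

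**Figure D4:**
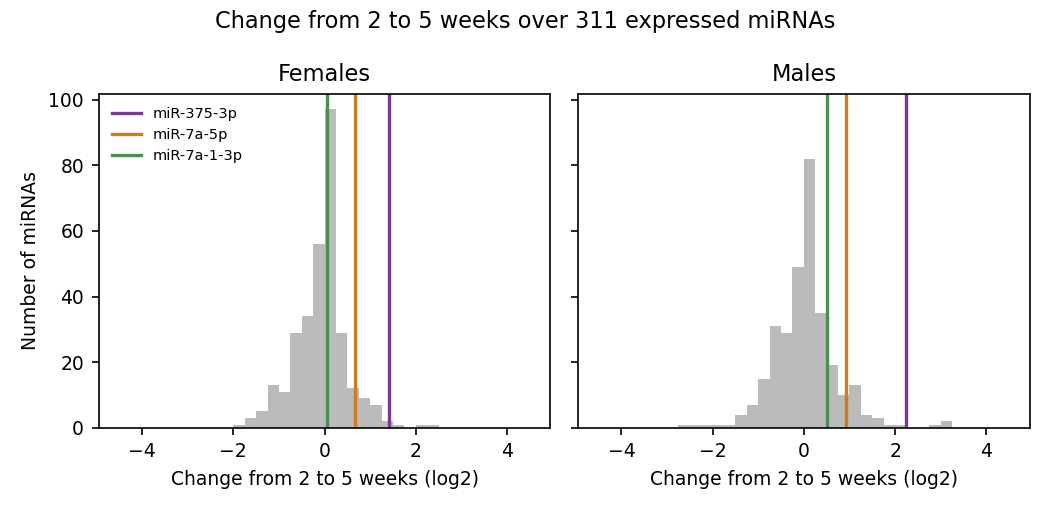
Distribution over the 311 expressed miRNAs of the change from 2 to 5 weeks (log2, horizontal axis, number of miRNAs on the vertical axis) in females and males, with vertical lines at miR-375-3p, miR-7a-5p and miR-7a-1-3p. miR-375-3p (1.42 and 2.23) lies far out in the upper tail, miR-7a-5p (0.66 and 0.92) nearer the bulk, and miR-7a-1-3p (0.06 and 0.51) within it.

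Over the 16 group means, miR-375-3p and miR-7a-5p had a Pearson r of 0.87. Once the group means were removed, their r over the 74 arrays was -0.04, against 0.33 for both strands of miR-7a. The points share arrays and scaling, so these are descriptions. The search for like patterns took in 225 other miRNAs, those present on 50% of the arrays or more. Those whose 16 group means were most like miR-375-3p were miR-29c-5p, miR-29a-3p and miR-29c-3p (r of 0.94, 0.94 and 0.93). Those most like miR-7a-5p were miR-29b-3p, miR-29a-3p and miR-425-5p (r of 0.97, 0.97 and 0.96). For miR-7a-1-3p they were miR-26b-5p, miR-30b-5p and miR-200a-3p (r of 0.88, 0.84 and 0.82).

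Other miRNAs known from islet, pituitary or neuroendocrine cells did not share 1 course. Of 26 arms of the endocrine list on the array, 14 were expressed, and 7 of them on 50% of the arrays or more. The age effect was called for 6 of the 14 in females and 9 in males, beside 36.7% and 45.3% of all expressed miRNAs. From 2 to 5 weeks, 1 of the 14 was called in females, beside 20.3% of all expressed miRNAs. This was miR-9a-3p, which fell by 1.06 (limma, adjusted p = 0.0190). In males 2 of the 14 were called, beside 24.8% of all expressed miRNAs. One was miR-127-3p (limma, adjusted p = 0.00270), which was detected in 2 of 5 males at 2 weeks and 0 of 5 at 5 weeks. The other was miR-382-5p, which rose by 0.91 (limma, adjusted p = 0.00327).

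The remaining list members called with age took several courses. miR-96-5p, miR-182 and miR-183-5p, which come from 1 cluster and are also expressed in sensory epithelia, were higher in 15-week than in 5-week females in their means. This comparison and the means given for it span the change of slides, and a step of 15 minus 5 weeks was not tested. Mean normalized intensity of miR-183-5p went from 0.317 in 5-week females to 1.01 in 15-week females, and from 0.361 to 0.534 in males. The mean of miR-96-5p went from 0.453 to 1.22 in these females and that of miR-182 from 0.0554 to 0.113. The 8 minus 5 week step, within 1 set of slides, was called for all 3 in both sexes. This step was called for 2.89% of all expressed miRNAs in females and 2.25% in males. miR-129-1-3p was undetected on all arrays of 2 weeks and measured 0.0506 ± 0.0064 (SD, n = 5) in females of 104 weeks and 0.0327 ± 0.0088 (n = 4) in their male counterparts. miR-129-2-3p was detected in 1 of 4 females and 0 of 5 males of 2 weeks and measured 0.0695 ± 0.0120 and 0.0437 ± 0.0096 in the same females and males of 104 weeks. All 4 of these changes were called, where 24.8% of all expressed miRNAs in females and 35.4% in males were called from 2 to 104 weeks. Because the 2-week levels lie at the floor, the size of these 4 has only a lower bound. Every change from 2 to 104 weeks in this paragraph spans the change of slides. miR-9a-5p fell by 0.62 in females and by 1.19 in males over that span, both called. miR-184 was detected on 7 arrays only, 4 of them those of the 104-week males (adjusted p = 1.10e-10 against 2 weeks, where it was at the floor). The interaction was called for 5 of the 14 (27.7% of all expressed miRNAs), while it was called for 0 of the 3 testable miR-375 and miR-7 members, 0 of which had an unadjusted p under 0.05. Among the 14, sex differences called at single ages are given here beside the share of all expressed miRNAs called at that age. miR-183-5p was called higher in females at 6, 8 and 15 weeks, where 0.322%, 1.29% and 3.54% of the miRNAs were called. At 78 and 104 weeks miR-129-1-3p and miR-129-2-3p were called higher in females and miR-184 higher in males (6.75% and 6.11%). The summed level of the list at 15 weeks was 2.26 to 3.51 in females and 1.55 to 1.98 in males, without overlap.

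Markers of other cell types moved between the same groups. The summed level of the 14 kidney tubule and epithelium miRNAs went from 52.9 to 57.3 in 2-week females to 57.3 to 74.8 in 5-week females, and from 40.6 to 47.6 to 57.9 to 67.8 in males. At 15 weeks it was 73.2 to 80.7 in females and 66.4 to 77.9 in males, overlapping between the sexes. The summed level of miR-9a, the only expressed nervous-tissue markers (2 of 6 arms), fell over the same step, from 0.333 to 0.428 to 0.162 to 0.303 in females. That of the leukocyte miRNAs (5 of 6 arms expressed) was 1.94 to 2.06 in 2-week males and 2.88 to 3.35 in 5-week males. Across the change of slides, it was 5.72 to 7.91 in 104-week males. Red blood cell miRNAs (3 of 4 arms expressed) went from 0.973 to 1.07 to 1.61 to 2.68 in males from 2 to 5 weeks. Of the striated muscle arms 1 of 6 was expressed, detected on 17 arrays and at no more than 0.0410. The part of these cell types in the levels of miR-375 and miR-7 was not tested.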

How the data were processed

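The authors deposited single-colour scanner output for 74 arrays, with intensities that Agilent Feature Extraction had background-subtracted and combined into 1 total gene signal per miRNA over 20 spots, not normalized between arrays. An undetected miRNA has an intensity of 0.1 there, and 0 miRNA spots were saturated. Their table of normalized intensities was not used, because 69 of its 74 columns held another array than the one they name. Each array was divided by its 75th percentile over 311 expressed miRNAs, floored at 0.0171 and put on the log2 scale. Group means were compared with limma 3.58.1 in R 4.3.3 (58 residual degrees of freedom), age effects within each sex with its moderated F test, and p-values were adjusted over 311 miRNAs by the Benjamini-Hochberg method. A call needed both an adjusted p below 0.05 and a 1.5-fold difference, for an age effect between 1 pair of ages at an unadjusted p under 0.05, and for the interaction the adjusted p alone. Scripts were tested on simulated data.

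Members and lists were chosen with earlier results of these data known. Named were all matches of the rule, called members of the endocrine list, the 3 miRNAs most alike each member and array miRNAs sharing a seed. The endocrine list held miR-9, miR-9a, miR-96, miR-124, miR-127, miR-129, miR-153, miR-182, miR-183, miR-184, miR-376a to c, miR-382, miR-409 and miR-495. Alternatives varied the floor, percentile, normalization, background correction (normexp, offset of 50, on median spot signals), filters, fold threshold, tests, slide and replicate blocks and single arrays. The use of the brightest probe, and leaving out the array of high local background or the 15-week female array on a slide of the younger ages, were chosen after seeing the data. Replicate numbers did not pair the samples (mean correlation of residuals 0.038 for 28 same-numbered pairs of an age).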

Additional observations from a re-analysis of the deposited data

Results flagged for a closer look

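In 48 groups of 4 or 5 arrays, 3 held an array that stood apart from the rest by Dixon's criterion, about what chance gives at 1 in 20 groups. miR-375-3p of 2-week male replicate 2 was undetected and set to the floor of 0.0171, against 0.0469 to 0.0651 in the other males. This array also had the high local background, and its brighter probe gave 0.0457. miR-7a-1-3p of 2-week male replicate 3 was 0.0194 where the other males of that age were all set to the floor, so the floor alone fixed this flag. Before flooring, 3 of them measured 0.0162, 0.0153 and 0.0171, and the fourth was undetected. miR-7a-5p of 6-week male replicate 1 was 0.139, against 0.202 to 0.214 in the others.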

How the results depend on the processing

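Apart from leaving out arrays, 416 of 478 recomputed values stayed on the side of the threshold and in the direction given above, or moved by less than the spread. Normexp with an offset of 50, larger than the median spot signal above background of the members (24 for miR-375-3p, 27.5 for miR-7a-5p, 12.5 for miR-7a-1-3p), ended the age calls: adjusted p was 0.922 in females and 0.00523 in males for miR-375-3p, 0.855 and 0.0113 for miR-7a-5p, and 0.134 in males for miR-7a-1-3p, those under 0.05 failing on fold. It also shifted the median of all miRNAs, by -0.168 for 5 minus 2 weeks and -0.371 for 104 minus 2 weeks in females and by -0.185 for 104 minus 2 weeks in males. Under normexp the averaged sex difference was -0.21 for miR-375-3p and turned to -0.084 for miR-7a-5p. The median averaged sex difference over all miRNAs was -0.117 in that setting. The female changes of miR-7a-5p from 2 to 5 and 2 to 104 weeks turned to -0.045 and -0.050. Those of miR-7a-1-3p turned to -0.17 and -0.37, with -0.14 in males from 2 to 104 weeks.

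Ages of 15 to 104 weeks alone gave no called age effect for miR-375-3p (0.0722 in females, 0.0799 without the array on a slide of the younger ages, 0.591 in males) or miR-7a-5p (0.0155, 0.00764 and 0.00304), and ages of 2 to 8 weeks alone none for miR-7a-1-3p in males (0.00166). The female age effect of miR-7a-1-3p was called with all miRNAs of the array tested (0.0494), quantile normalization (0.0157) and the brightest probe alone (0.00321), and its adjusted p ranged from 0.0332 to 0.138 over single arrays left out. The sex difference of miR-375-3p averaged over ages (-0.42) was called with no fold threshold. Called sex differences of miR-375-3p, at 2 ages in the main setting, numbered 1 with the floor before scaling, quantile normalization or the brightest probe alone and 0 with the percentile taken over every miRNA or with normexp, and 1 to 3 over single arrays left out. The floor before scaling shifted the median of all miRNAs by -0.261 and -0.199 for the sex difference at 78 and 104 weeks. miR-7a-5p minus miR-7a-1-3p lost its call with quantile normalization for sex (0.15) and with the floor before scaling for the change from 2 to 5 weeks (0.32). The 2 to 5 week change of miR-7a-1-3p in females ranged from -0.076 to 0.23 over single arrays left out. The replicate block changed none of the 13 calls it was run on (averaged sex difference of miR-375-3p -0.40). The cause of these changes was not tested beyond what is stated. Signal over background limits miR-7a-1-3p and miR-7b most.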
